A study of Mus musculus with 15 samples.

Results

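Calprotectin and a set of acute-phase genes were compared over 5 groups of mouse knee synovium, ordered by joint swelling. The 10 genes were S100a8 and S100a9 (the subunits of calprotectin), Saa3 and Saa1 (serum amyloid A proteins), Lcn2, Hp, Orm1, Ptx3, Serpina3n and Cp. Their probe sets were taken from the deposited table wherever the platform annotation gave one of these symbols alone. All 10 genes were found, with 19 probe sets of the 45101 on the array, among 18194 genes with a symbol of their own. S100a8, S100a9 and Saa3 had been chosen from their large differences between severe swelling and naive joints on these same arrays, and the other genes were chosen by their place in the acute-phase response with those values known. The contrast of severe swelling with naive joints is therefore given below as a description with no test, and the p-values of the other contrasts are no independent support for a response of this group of genes.

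The study measured messenger RNA of mouse knee joint synovium, the lining of the joint with its underlying tissue, on Affymetrix arrays, 1 per sample. In collagen-induced arthritis (CIA), joints become inflamed after immunization against type II collagen, a cartilage protein. The groups, with 3 arrays each, were healthy naive synovium, and CIA synovium with no, mild, moderate or severe swelling. They are ordered by swelling, and no day of sampling was used here, so a step between groups is not a change over time. Per the labels' protocols, mice received 100 µg of collagen in FCA on day 0 and again, by the i.p. route, on day 21; the naive samples carry the same protocol text, which was read as written for the whole series. Strain, age and sex were not given in the sources used here, and nothing says that the replicates of a group came from separate animals, so the p-values reflect the spread among these samples alone.

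The acute-phase response is the change in secreted proteins that follows infection or injury. Interleukin-6, interleukin-1 and tumour necrosis factor drive it through STAT3, C/EBP and NF-κB transcription factors, chiefly in the liver but also at the inflamed site itself. Calprotectin, the heterodimer of S100A8 and S100A9, is the most abundant cytosolic protein of neutrophils, binds zinc and manganese and signals through the receptors TLR4 and RAGE once released. It is used in the clinic as a marker of joint inflammation. SAA3 is the mouse serum amyloid A made mainly outside the liver, whereas SAA1 and SAA2 are made mainly by hepatocytes.

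The promoters of the 2 calprotectin genes, Saa3 and Ptx3 are shown because these genes carry the main results, the first 3 as the genes with the largest differences and Ptx3 as a gene that was highest in mild joints on its brighter probe set. RefSeq windows of GRCm38.p6 from 250 bases before to 50 bases after the annotated start were matched for 8 of the 10 genes, all but Hp and Orm1. Capitals mark matches, on either strand, to the C/EBP pattern TTNNGNAA and, in Ptx3 alone, to the NF-κB consensus. Each sequence reads 5′ to 3′ on the gene's own strand.
S100a8, chr3:90668821-90669120, plus strand: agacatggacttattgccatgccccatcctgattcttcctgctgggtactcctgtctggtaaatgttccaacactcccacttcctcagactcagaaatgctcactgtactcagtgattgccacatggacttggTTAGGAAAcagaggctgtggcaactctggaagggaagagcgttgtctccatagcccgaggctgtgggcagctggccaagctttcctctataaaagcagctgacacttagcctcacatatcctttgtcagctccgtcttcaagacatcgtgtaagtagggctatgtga
S100a9, chr3:90695672-90695971, minus strand: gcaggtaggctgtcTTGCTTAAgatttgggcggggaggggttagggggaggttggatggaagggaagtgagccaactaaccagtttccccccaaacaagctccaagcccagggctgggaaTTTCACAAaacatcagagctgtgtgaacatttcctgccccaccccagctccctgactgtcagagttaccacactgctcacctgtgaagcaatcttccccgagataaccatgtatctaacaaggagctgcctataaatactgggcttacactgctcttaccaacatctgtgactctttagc
Saa3, chr7:46715627-46715926, minus strand: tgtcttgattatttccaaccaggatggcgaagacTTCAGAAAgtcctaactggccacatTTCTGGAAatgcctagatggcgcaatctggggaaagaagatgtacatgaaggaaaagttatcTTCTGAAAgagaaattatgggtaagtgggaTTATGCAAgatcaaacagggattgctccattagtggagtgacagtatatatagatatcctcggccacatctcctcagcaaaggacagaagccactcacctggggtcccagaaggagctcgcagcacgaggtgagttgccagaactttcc
Ptx3, chr3:66219637-66219936, plus strand: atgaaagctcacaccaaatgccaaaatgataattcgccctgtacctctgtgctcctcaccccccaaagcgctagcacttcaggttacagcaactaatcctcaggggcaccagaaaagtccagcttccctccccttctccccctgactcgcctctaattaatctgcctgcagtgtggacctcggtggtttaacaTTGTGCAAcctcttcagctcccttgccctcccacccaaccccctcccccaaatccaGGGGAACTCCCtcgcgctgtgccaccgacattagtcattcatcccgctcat

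Of the 8 genes with a promoter window, 8 held a C/EBP match, 0 held the STAT pattern TTCNNNGAA, and 1, Ptx3, held the NF-κB consensus, as a pair of overlapping matches across the annotated start. Over 32851 mouse promoters of the same length the shares with a match were 40.7% for C/EBP, 8.30% for STAT and 8.46% for NF-κB. The Saa3 window held 4 C/EBP matches and the S100a9 window 2, while S100a8 and Ptx3 held 1 each. These are letter matches and say nothing of binding.

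Signals were linear MAS5 intensities as deposited, and the differences below are on the log2(signal + 16) scale, which understates the change of dim genes. Calls used limma with Benjamini-Hochberg adjusted p under 0.05 over all 14315 genes tested; with 3 arrays a group, an exact permutation test between 2 groups has 0.1 as its smallest p. All 10 genes passed the filter on low signal. Array medians lay between 36.3 and 47.6, and the 40th percentile, which served as the low-signal limit, between 23.4 and 31.1. The 3′ to 5′ signal ratio of β-actin on the control probe sets, which reflects RNA integrity and labelling, averaged 0.977 ± 0.0762 in naive, 1.10 ± 0.0471 in no swelling, 1.16 ± 0.0317 in mild, 1.23 ± 0.0388 in moderate and 1.25 ± 0.0294 in severe samples (SD, n = 3 each), so it moved with swelling as the genes below did; its part in their differences was not tested. The same ratio for Gapdh lay between 0.828 and 0.891 in the group means, with no such order. In bulk tissue, more cells of a type and more RNA per cell cannot be told apart.

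**Figure D1:**
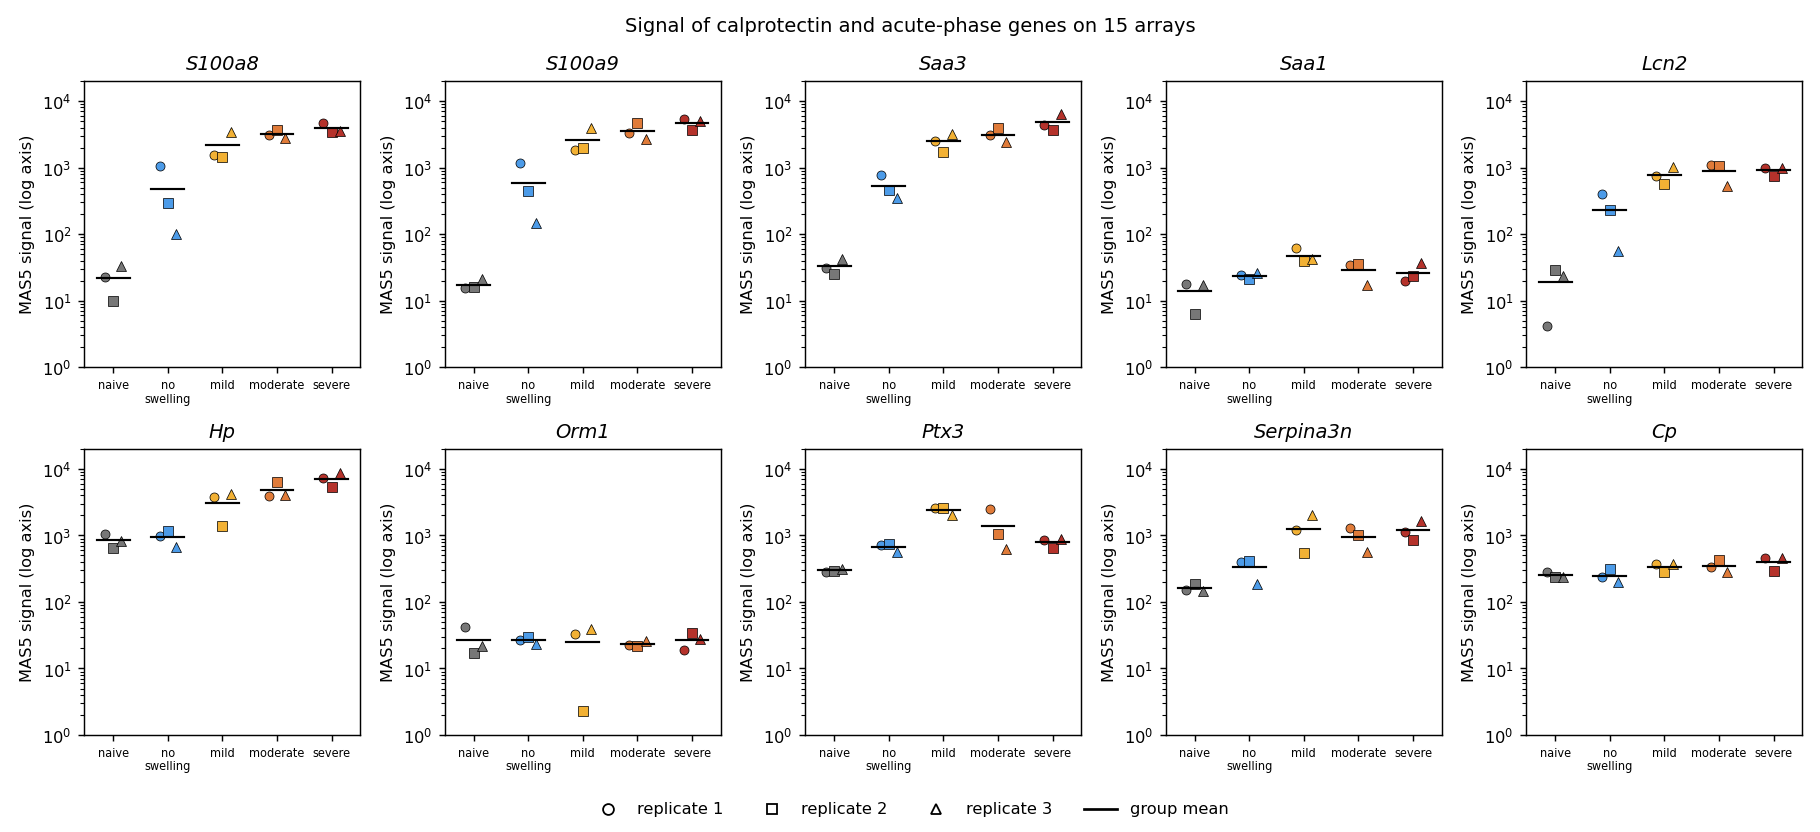
MAS5 signal of the 10 genes on every array, 1 probe set per gene, on a log axis; shapes mark the replicate and bars the group mean. S100a8, S100a9, Saa3 and Lcn2 were higher without swelling than in naive joints. Hp and Serpina3n were highest in swollen joints, Ptx3 was highest with mild swelling, and Orm1 stayed between 2.3 and 42.6.

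Calprotectin was higher in immunized joints that showed no swelling than in naive joints. S100a8 had signals of 1053.9, 291.5 and 101.6 in no swelling joints, against 22.4, 9.7 and 33.1 in naive joints. S100a9, its partner subunit, had 1154.1, 437.2 and 146.5 in no swelling joints, against 15.2, 15.9 and 20.8 in naive joints. Every no swelling array lay above every naive array for both genes, and replicate 1 was the highest and replicate 3 the lowest of the no swelling arrays for both. S100a8 rose by 3.21 ± 0.54 (SE, limma adjusted p = 0.00522) and S100a9 by 3.73 ± 0.48 (limma adjusted p = 0.000681). For S100a8 2 of the 3 naive signals, and for S100a9 all 3, lay below the low-signal limit of their array. The fold over naive was therefore also taken with each dim naive signal raised to that limit, as a ratio of geometric means. On that basis S100a8 was 10.8-fold and S100a9 15.7-fold higher in no swelling joints than in naive joints.

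Both subunits were higher again in swollen joints. S100a8 reached 1537.6, 1466 and 3456.1 in mild, 3141.3, 3643.1 and 2784.9 in moderate, and 4720.5, 3397.8 and 3595.4 in severe swelling. S100a9 reached 1843.1, 1952.7 and 3920.3 in mild, 3360.9, 4637.9 and 2725.8 in moderate, and 5456.9, 3692.7 and 5048.4 in severe swelling. All mild arrays lay above all no swelling arrays, whereas mild, moderate and severe arrays overlapped between neighbouring groups. From no swelling to mild, S100a8 rose by 2.56 ± 0.54 (limma adjusted p = 0.0018) and S100a9 by 2.46 ± 0.48 (limma adjusted p = 0.00107). Differences between swollen groups did not pass the test. Moderate over mild was 0.67 ± 0.54 for S100a8 (limma adjusted p = 0.491) and 0.53 ± 0.48 for S100a9 (limma adjusted p = 0.556). Severe over mild was 0.96 ± 0.54 for S100a8 and 0.95 ± 0.48 for S100a9 (limma adjusted p = 0.261 and 0.213). Taken as a description, severe joints stood 6.73 above naive joints for S100a8 and 7.14 for S100a9, and 133-fold and 175-fold above the raised naive level.

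The pair also moved together within groups, with the widest spread among the no swelling arrays. Over the 15 arrays, deviations of S100a8 and S100a9 from their group means correlated at r = 0.958, a description of arrays that share total signal and tissue. For comparison S100a9 correlated with Lcn2 at 0.871 and with Saa3 at 0.811, and S100a8 with Ptx3 at 0.133.

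Saa3, an apolipoprotein of high-density lipoprotein that is induced in macrophages, fibroblasts and fat, followed calprotectin closely in direction. Its signals were 784.2, 461.9 and 346.9 in no swelling joints, against 31, 25.2 and 42.1 in naive joints. In swollen joints it measured 2516.1, 1701.4 and 3251.8 (mild), 3053.3, 3949.6 and 2382.8 (moderate) and 4389.4, 3620.4 and 6400 (severe). No swelling arrays lay above naive arrays and mild arrays above no swelling arrays without overlap, and the severe arrays also lay above all mild arrays. Saa3 rose by 3.42 ± 0.29 in no swelling joints over naive joints (limma adjusted p = 1.63e-05) and by 2.23 ± 0.29 in mild over no swelling joints (limma adjusted p = 6.99e-05). In severe over mild joints it rose by 0.95 ± 0.29 (limma adjusted p = 0.0463), a call lost under 17 of 27 alternatives, with adjusted p up to 0.282. The arrays that ended it when left out were each naive array, no swelling replicate 2, mild replicates 1 and 2, moderate replicate 1, and severe replicates 1 and 3 (adjusted p of 0.0529 to 0.207). Described without a test, severe joints stood 6.60 above naive joints.

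Lcn2 encodes lipocalin-2, which withholds iron from bacteria by binding their siderophores and is stored in neutrophil granules. It measured 405.2, 230.7 and 56.1 in no swelling joints, against 4.2, 28.6 and 23.4 in naive joints. With swelling it measured 752.5, 569.6 and 1006.3 (mild), 1108.8, 1051.9 and 528 (moderate) and 996.7, 746.2 and 969.4 (severe). The no swelling arrays stood above the naive ones and below the mild ones, and the 3 swollen groups overlapped. Lcn2 rose by 2.57 ± 0.48 in no swelling over naive joints (limma adjusted p = 0.00985), a call lost without naive replicate 1 (0.0584) or no swelling replicate 1 (0.0555). It rose by 1.98 ± 0.48 in mild over no swelling joints (limma adjusted p = 0.00457), and by 1.26 when no swelling replicate 3 was left out. Severe over mild was 0.24 ± 0.48 (limma adjusted p = 0.786).

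In all, 4 of the 10 genes were called higher in no swelling joints than in naive joints, S100a8, S100a9, Saa3 and Lcn2, where 1.52% of all genes tested were called higher. None was called lower, and the median difference of the 10 genes was 1.01 against -0.01 over all genes. Ptx3, Serpina3n and Saa1 also stood above their naive arrays without overlap, as 13% of all genes did, but did not pass. Saa1, Hp, Orm1 and Cp had adjusted p between 0.355 and 0.987.

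Hp, the gene of haptoglobin, which captures free haemoglobin, was called higher in swollen joints and was not called in no swelling over naive joints. It measured 977.9, 1183.6 and 659.6 in no swelling joints, against 1066.4, 645.9 and 817.2 in naive joints, ranges that overlapped. In mild joints it measured 3849.5, 1366 and 4154.2, in moderate joints 3931.9, 6308.5 and 4096.5, and in severe joints 7311.5, 5271.5 and 8718.8. Mild replicate 2 was the one swollen array near the no swelling range. Hp differed by 0.14 ± 0.35 between no swelling and naive joints (limma adjusted p = 0.875) and rose by 1.60 ± 0.35 in mild over no swelling joints (limma adjusted p = 0.00241). It rose by 1.31 ± 0.35 in severe over mild joints (limma adjusted p = 0.028), with all severe arrays above all mild arrays. That call was lost with only the groups compared in the fit (0.108) and without mild replicate 2 (0.80, adjusted p = 0.118), severe replicate 1 (0.111) or severe replicate 3 (0.104). As a description, severe joints stood 3.05 above naive joints, of which 4.7% was present without swelling and 57.1% with mild swelling.

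Serpina3n, a secreted inhibitor of serine proteases such as granzyme B and elastase in mouse, measured 402.9, 410.4 and 188.5 in no swelling joints, against 153.7, 187.6 and 145.3 in naive joints. It measured 1219.8, 540.1 and 2039.2 in mild, 1280.4, 1001.5 and 561.6 in moderate, and 1108.5, 856 and 1671.1 in severe joints. The no swelling replicate 3 lay just above the highest naive array, and the 3 swollen groups overlapped throughout. Serpina3n rose by 1.76 ± 0.41 in mild over no swelling joints (limma adjusted p = 0.00346). The difference between no swelling and naive joints was 0.90 ± 0.41 (limma adjusted p = 0.251), and that of severe over mild joints 0.08 ± 0.41 (limma adjusted p = 0.926). Severe joints stood 2.74 above naive joints, and mild joints held 97.2% of that distance.

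Ptx3, the gene of the long pentraxin that opsonizes microbes and binds complement C1q, was the one gene of the 10 called lower in severe than in mild joints with 1 probe set per gene. Its brighter probe set measured 714.5, 756.2 and 556.5 in no swelling joints, against 286.3, 294.1 and 316.6 in naive joints. It measured 2550.2, 2605.5 and 2063.6 in mild, 2459.7, 1066.4 and 636.4 in moderate, and 867.4, 644.8 and 869.8 in severe joints. Mild arrays lay above all no swelling arrays and above all severe arrays, while moderate joints spread from the mild range (replicate 1) to the severe range (replicate 3). Ptx3 rose by 1.81 ± 0.32 in mild over no swelling joints (limma adjusted p = 0.000502). It fell by 1.59 ± 0.32 in severe relative to mild joints (limma adjusted p = 0.00773). The latter call was kept under all 27 alternatives, where the separate test of every probe set was read on the brighter one. The Ptx3 difference between moderate and mild joints was -1.0 ± 0.32 (limma adjusted p = 0.069). That difference depended on single moderate arrays: it was -1.52 without replicate 1 (adjusted p = 0.00456) and -0.56 without replicate 3 (0.227). It passed with the mean of both probe sets (-0.71, adjusted p = 0.0416), and did not pass under the other alternatives, with adjusted p up to 0.234.

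The step of Ptx3 from no swelling to mild was larger than its next step to moderate by 2.81 ± 0.55, a test of the difference itself (limma adjusted p = 0.0242). This call was lost with array medians aligned (0.0557), with the mean of probe sets (0.0839), with only the groups compared (0.0963) and without mild replicate 1 (0.139) or 3 (0.11). It was the 1 gene of the 10 so called, where 1.68% of all genes were called in either direction. Among the other genes the same difference was 1.88 ± 0.51 for Saa3 (limma adjusted p = 0.0753) and 2.05 ± 0.71 for Serpina3n (limma adjusted p = 0.164). Without no swelling replicate 1 or without mild replicate 2, 4 genes were called. Ptx3 also differed by 1.12 ± 0.32 between no swelling and naive joints (limma adjusted p = 0.0677), which passed with only the groups compared (0.00404) and without moderate replicate 1 (0.00615) or 3 (0.0219). It did not pass under the other alternatives, among them the mean of both probe sets (0.55, adjusted p = 0.139), leaving out no swelling replicate 1 (1.08, adjusted p = 0.2) and scaling on hybridization controls (0.98, adjusted p = 0.351).

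The 2 probe sets of Ptx3 disagreed. The dimmer one measured 113.6, 90.2 and 125.5 in no swelling joints, against 109.8, 119.6 and 103 in naive joints. It then measured 61.1, 75 and 30.3 in mild, 27.1, 41.6 and 37.5 in moderate, and 29.3, 25.8 and 40.2 in severe joints. Tested as a feature of its own, it fell by 0.86 ± 0.22 in mild relative to no swelling joints (limma adjusted p = 0.00694), the opposite direction to the brighter probe set. Its difference between severe and mild joints was -0.54 ± 0.22 and did not pass (limma adjusted p = 0.13). With the mean of both probe sets, the step from no swelling to mild was 0.48 (limma adjusted p = 0.0646). Which part of the gene each probe set reads was not analysed here.

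**Figure D2:**
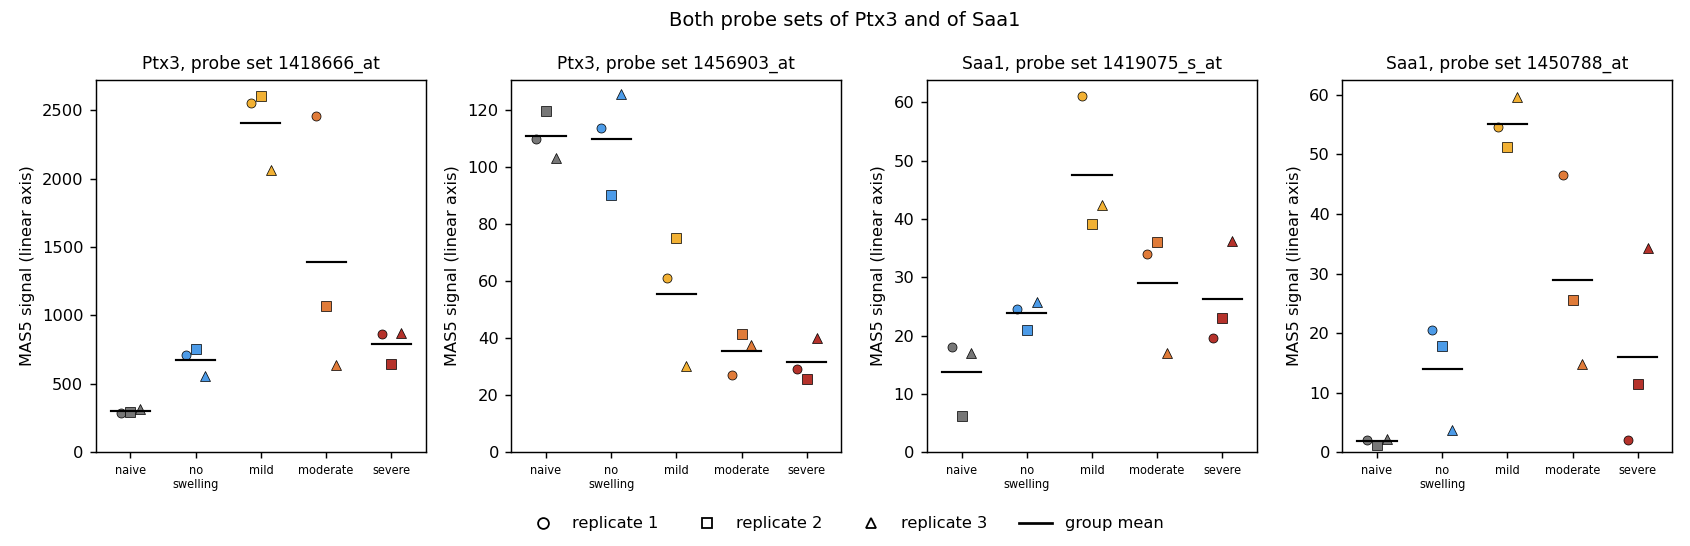
MAS5 signal of both probe sets of Ptx3 and of Saa1 on every array, on linear axes that start at 0; shapes mark the replicate and bars the group mean. The 2 Ptx3 probe sets run in opposite directions at mild swelling, whereas both Saa1 probe sets are highest there.

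Saa1 gave signals of at most 61.1 on every array. The brighter of its 2 probe sets carries the accession of Saa2 in RefSeq, so it does not separate Saa1 from Saa2. It measured 24.6, 21 and 25.8 in no swelling joints, against 18, 6.2 and 17.1 in naive joints. It measured 61.1, 39.1 and 42.4 in mild, 34, 36 and 17.1 in moderate, and 19.6, 23.1 and 36.3 in severe joints. The mild arrays stood above the arrays of every other group, and most other signals lay near the low-signal limit. Saa1 rose by 0.66 ± 0.25 in mild over no swelling joints (limma adjusted p = 0.0447), a call lost under 12 of 26 alternatives, with adjusted p up to 0.178 when mild replicate 1 was left out. Leaving out mild replicate 3 (0.0737), any of the 3 no swelling replicates (0.0789 to 0.106), naive replicate 3 (0.0501), moderate replicate 1 (0.0522) or severe replicate 2 (0.0506) also ended it.

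The dimmer Saa1 probe set, which carries the accession of Saa1 itself, measured 20.5, 17.9 and 3.7 in no swelling joints, against 2.1, 1.2 and 2.3 in naive joints. It measured 54.6, 51.3 and 59.6 in mild, 46.5, 25.6 and 14.8 in moderate, and 2.1, 11.4 and 34.3 in severe joints. The 3 mild arrays again stood above all others. By itself it rose by 1.29 ± 0.35 in mild over no swelling joints (limma adjusted p = 0.00902) and fell by 1.28 ± 0.35 in severe relative to mild joints (limma adjusted p = 0.0294). For the brighter probe set, severe joints also lay below mild joints without overlap, at -0.59 ± 0.25 (limma adjusted p = 0.127).

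Orm1, the gene of the plasma protein orosomucoid, gave no difference that passed in any comparison. Its signals were 26.4, 30.1 and 23.2 in no swelling joints, against 42.6, 17.2 and 22 in naive joints, and lay between 2.3 and 38.8 in swollen joints. These values straddle the low-signal limit. Mild over no swelling was -0.21 ± 0.34 (limma adjusted p = 0.661), and severe joints stood 0.02 above naive joints, a sign that turned under other scalings.

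Cp encodes ceruloplasmin, the copper-binding ferroxidase of plasma. Its brightest probe set measured 234.1, 309.3 and 201.3 in no swelling joints, against 281.3, 237 and 233.7 in naive joints. It measured 368.7, 284.6 and 369.7 in mild, 331.4, 428.6 and 279.5 in moderate, and 452.7, 292 and 461.3 in severe joints. The severe arrays lay above all naive arrays, while neighbouring groups overlapped. Mild over no swelling was 0.45 ± 0.20 (limma adjusted p = 0.091). This passed with scaling on hybridization controls (1.18, adjusted p = 0.00403) and without no swelling replicate 2 (0.0356) or mild replicate 2 (0.0478). Of its 8 probe sets, 1 of the dimmer ones was called by itself in this step, at 0.59 ± 0.21 (limma adjusted p = 0.0419), and 1 did not pass the low-signal filter. The others were not called and lay between -0.34 and 0.46.

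**Figure D3:**
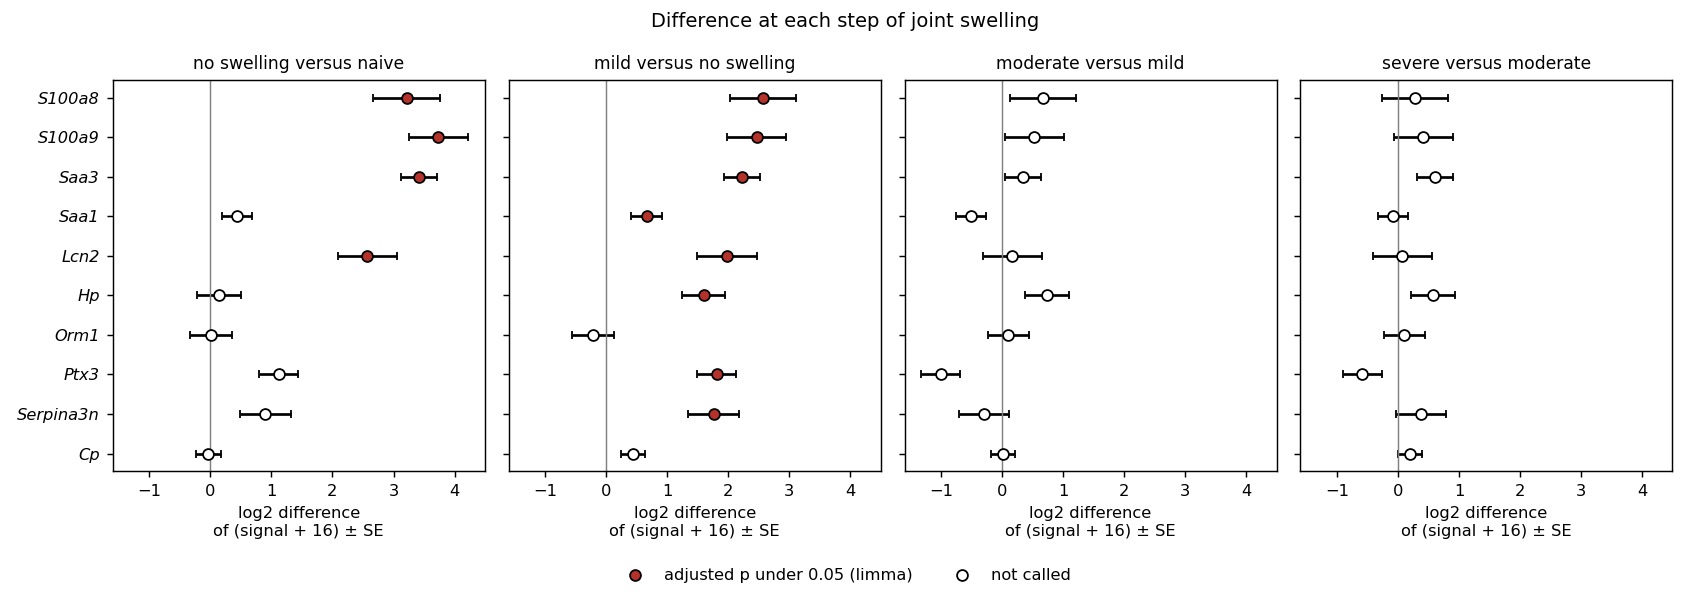
Difference between neighbouring grades for each gene, on the log2(signal + 16) scale, with the standard error of limma as bars; filled points passed at adjusted p under 0.05. The filled points lie in the first 2 panels, 4 genes for no swelling over naive and 8 for mild over no swelling, and none lies in the other 2 panels.

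The step from no swelling to mild swelling held the most calls. There 8 of the 10 genes were called higher, all but Cp and Orm1, where 23% of all genes tested were called higher, and none was called lower. In each of the 8 all mild arrays lay above all no swelling arrays, as for 26.9% of all genes. The median difference of the 10 genes was 1.78 against 0.09 over all genes. Another 15.6% of all genes were called lower. Scaling on the hybridization controls, in place of the authors' scaling, moved the median of all genes in this step to 0.71 and gave 9 calls among the 10 genes, so each difference here is relative to the other genes on the array. The comparisons of neighbouring grades share arrays, so their values are not independent of each other.

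Beyond mild swelling few calls were made. Of the 10 genes, 0 were called by limma between moderate and mild joints, where 6.73% of all genes were called in either direction, and 1, Ptx3, had an unadjusted p under 0.05. Between severe and moderate joints 0 of the 10 were called by limma, as 0% of all genes were, and 0 had an unadjusted p under 0.05. Between severe and mild joints 3 were called, Saa3 and Hp higher and Ptx3 lower, where 12.3% of all genes were called in either direction. As a description of the contrast that chose the leading genes, the severe arrays lay above the naive arrays without overlap for 9 of the 10 genes, all but Orm1, as for 36.1% of all genes.

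The cytokines that induce these genes were measured on the same arrays. Of 12 inducing cytokine and receptor genes tested, 2 were called higher in no swelling joints than in naive joints, Il6 and Il1b (against 1.52% of all genes), and 10 in mild over no swelling joints (against 23% of all genes), with none lower in either comparison. Il6, which signals through STAT3, had 216.2, 110.4 and 87.5 in no swelling joints, against 1.8, 14.1 and 0.7 in naive joints. It rose by 2.80 ± 0.34 in no swelling over naive joints (limma adjusted p = 0.000357) and by 2.53 ± 0.34 in mild over no swelling joints (limma adjusted p = 7.34e-05). Il1b, which signals through MyD88 and NF-κB, rose by 1.16 ± 0.25 and 2.52 ± 0.25 in the same comparisons (limma adjusted p = 0.0225 and 1.61e-05). Il17ra, a receptor chain for interleukin-17, rose by 2.19 ± 0.24 (limma adjusted p = 2.08e-05) in mild over no swelling joints. Il6ra (0.349 ± 0.219) and Tnf (-0.185 ± 0.457), the gene of tumour necrosis factor, were not called in that step (limma adjusted p = 0.228 and 0.784). Tnf was not called in no swelling over naive joints either (0.567 ± 0.457, limma adjusted p = 0.556). Its group means, from 7.27 to 24.9, lay near or below the low-signal limit. The median of the 12 genes was 0.46 in no swelling over naive joints and 1.33 in mild over no swelling joints.

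Transcription factors and feedback genes of the response were called in both steps, more of them in mild over no swelling joints. Of 9 tested, 3 were called higher in no swelling than in naive joints, Socs3, Cebpd and Nfkbiz (against 1.52% of all genes), and 8 in mild over no swelling joints (against 23% of all genes), with none lower in either. The 6 not called in no swelling over naive joints lay between -0.20 and 0.51, with Stat3 at -0.03 and Rela at -0.20. Socs3, the inhibitor that STAT3 induces, measured 1704.2, 1147.3 and 1096.2 in no swelling joints, against 134.5, 162.1 and 128.2 in naive joints, and rose by 3.06 ± 0.20 (limma adjusted p = 9.02e-07). Cebpd, the gene of C/EBPδ, rose by 1.55 ± 0.17 (limma adjusted p = 0.000136). Both rose less in mild over no swelling joints, Socs3 by 0.995 ± 0.205 and Cebpd by 0.534 ± 0.168 (limma adjusted p = 0.00145 and 0.0199). In mild over no swelling joints Nfkbiz, the gene of the NF-κB cofactor IκBζ, rose by 1.67 ± 0.20 (limma adjusted p = 3.75e-05), Cebpb by 0.84 ± 0.14 (limma adjusted p = 0.000451) and Stat3 by 0.92 ± 0.16 (limma adjusted p = 0.000574). Socs3 and Cebpd, as well as other genes given here only to complete a count, were chosen after their values were seen.

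Among other acute-phase genes 12 were tested. The metallothionein genes Mt1 and Mt2, whose products bind zinc, were the 2 called higher in no swelling than in naive joints, where 1.52% of all genes were. Mt1 had 4661, 3725.3 and 2429 in no swelling joints, against 612.8, 618.3 and 523.8 in naive joints, and rose by 2.54 ± 0.25 (limma adjusted p = 6.19e-05). Mt2 rose by 2.38 ± 0.23 (limma adjusted p = 3.98e-05). In mild over no swelling joints 5 were called higher and 1 lower, where 23% of all genes were called higher and 15.6% lower: Cfb, a complement protease precursor, rose by 1.42 ± 0.29 (limma adjusted p = 0.00142), Mt1 by 0.99 ± 0.25 (limma adjusted p = 0.00602), and Mt2, Lbp and Hpx by 0.74 to 1.08. Agt, the gene of angiotensinogen, fell by 1.13 ± 0.25 (limma adjusted p = 0.00238), and stood at -0.49 with scaling on hybridization controls (adjusted p = 0.207). Of genes for proteins that fall in plasma in the acute phase, 2 were tested and 0 were called by limma in either comparison, also at an unadjusted p under 0.05. The median of the 12 acute-phase genes was 0.16 in no swelling over naive joints and 0.63 in mild over no swelling joints, against -0.01 and 0.09 over all genes.

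Of 12 receptor and binding partner genes tested, 6 were called higher and 2 lower in mild over no swelling joints, where 23% of all genes were called higher and 15.6% lower. In no swelling over naive joints 0 were called by limma, with 3 at an unadjusted p under 0.05, where 1.52% of all genes were called higher. The receptor genes Tlr2 and Fpr2, both of whose products bind serum amyloid A, rose by 1.63 ± 0.26 (limma adjusted p = 0.000229) and 1.39 ± 0.24 (limma adjusted p = 0.000468), and Myd88, the adaptor of Toll-like receptors, by 1.12 ± 0.17 (limma adjusted p = 0.0002). Cd36, a scavenger receptor also high in fat and muscle, and Bsg fell by 0.82 ± 0.19 and 0.55 ± 0.14 (limma adjusted p = 0.00303 and 0.00536). With scaling on hybridization controls Cd36 stood at -0.04 and Bsg at 0.23, and neither passed. Cd163, the haptoglobin-haemoglobin receptor of macrophages, Slc22a17, a receptor for lipocalin-2, and Ager, the gene of RAGE, were not called in that step.

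Of 12 iron-handling genes tested, 3 were called higher and 2 lower in mild than in no swelling joints, shares near the 23% and 15.6% of all genes, so the counts show nothing particular to iron handling. In no swelling over naive joints 1 was called higher, Steap4, a metalloreductase gene (0.72 ± 0.16, limma adjusted p = 0.0235), where 1.52% of all genes were. Slc11a1, a phagosomal metal transporter, rose by 0.95 ± 0.17 (limma adjusted p = 0.000461) in mild over no swelling joints and Hmox1, which degrades haem, by 1.28 ± 0.25 (limma adjusted p = 0.0011). Hpx, the gene of the haem-binding protein hemopexin, is in this list and in that of acute-phase genes and rose by 0.75 ± 0.21 (limma adjusted p = 0.0112). The iron exporter gene Slc40a1 fell by 0.64 ± 0.19 and the ferritin heavy chain gene Fth1 by 0.40 ± 0.14 (limma adjusted p = 0.0131 and 0.0316). Both turned with scaling on hybridization controls, to 0.12 and 0.38, and neither passed. Fth1 stood at 0.09 with quantile normalization. The median of the 12 genes was -0.13 in mild over no swelling joints.

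Of 8 other S100 genes tested, 5 were called higher and 1 lower in mild over no swelling joints, where 23% of all genes were called higher and 15.6% lower. In no swelling over naive joints 0 were called by limma (1 at an unadjusted p under 0.05), where 1.52% of all genes were called higher. S100a6 and S100a4, calcium-binding proteins found in fibroblasts, rose by 1.19 ± 0.19 (limma adjusted p = 0.000293) and 1.80 ± 0.30 (limma adjusted p = 0.000326), and S100a1, a muscle gene, fell by 0.90 ± 0.17 (limma adjusted p = 0.000964), or -0.12 with scaling on hybridization controls (adjusted p = 0.786). Whether the members of this family differ from S100a8 and S100a9 in no swelling over naive joints was not tested. Of other clade A3 serpins 1 gene was tested and was not called in either comparison.

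**Figure D4:**
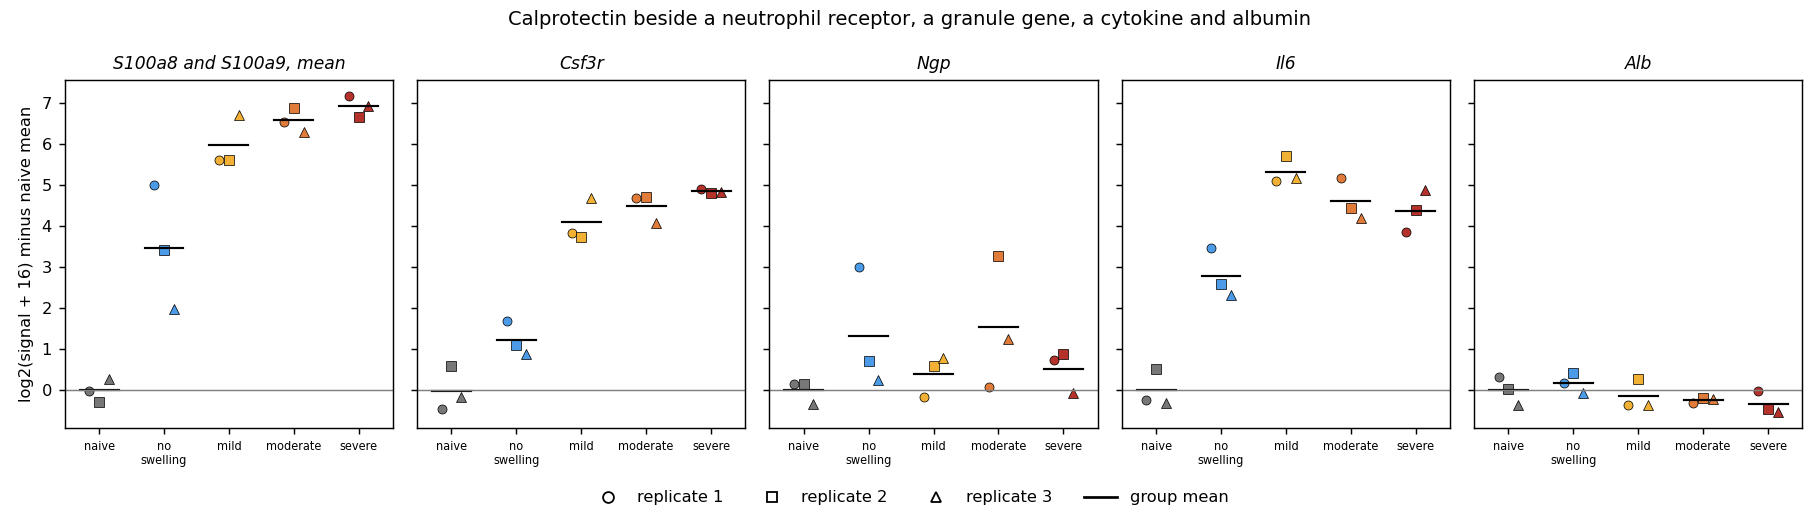
Difference from the naive mean on the log2(signal + 16) scale for the mean of S100a8 and S100a9, the neutrophil receptor gene Csf3r, the granule gene Ngp, the cytokine gene Il6 and albumin (Alb) on every array; bars are group means. No swelling replicate 1 is the highest array of its group for calprotectin, Csf3r, Ngp and Il6, and Alb stays near 0.

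Of 14 neutrophil markers tested, 3 (Csf3r, Clec4d and Clec4e) were called higher in no swelling than in naive joints, where 1.52% of all genes were, and 9 in mild over no swelling joints, where 23% of all genes were, and none was called lower. The 11 not called in no swelling over naive joints lay between -0.21 (Mmp9) and 1.33 (Ngp). Cxcr2 stood at 0.29 ± 0.20 there (limma adjusted p = 0.482). Of the 5 not called in mild over no swelling joints, the granule genes Ngp, Ltf and Camp stood at -0.93, -0.37 and -0.11 and Mmp8 and Cd177 at 0.42 and 0.31. The summed signal of the list was 1952.5, 1244.2 and 906.5 in no swelling joints, against 729, 692.2 and 710.7 in naive joints. It lay between 2613 and 4205.9 in mild, 3473.8 and 5991.3 in moderate and 3869.4 and 5733.8 in severe joints. The no swelling arrays had replicate 1 highest and replicate 3 lowest, the order of S100a8, S100a9, Saa3 and Lcn2. Without the granule genes Ngp, Camp and Ltf, left out after seeing the data, the sum was 1009.4, 1069.4 and 781.8 in no swelling joints, against 628.1, 574.3 and 587.4 in naive joints. Replicate 1 was then no longer the highest no swelling array, and the groups still did not overlap. Csf3r, the G-CSF receptor gene, rose by 2.87 ± 0.29, Cxcr2, a receptor of neutrophil-attracting chemokines, by 1.90 ± 0.20, and the lectin gene Clec4d by 2.17 ± 0.23 in mild over no swelling joints (limma adjusted p = 1.67e-05, 1.92e-05 and 2.09e-05). Their part in the differences of the 10 genes was not tested.

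Genes of immature marrow neutrophils stood out on 2 arrays. Ngp, a gene of granules formed in marrow, had 633.2 in no swelling replicate 1, with 117.8 and 81.1 in the other no swelling replicates, and 773.4 in moderate replicate 2, with 70.4 and 177 in the other moderate replicates. Camp, another such granule gene, had 186.1 in no swelling replicate 1, with 9.7 and 11.6 in its group. Without no swelling replicate 1, S100a8 rose by 2.38, S100a9 by 3.03 and Saa3 by 3.11 in no swelling over naive joints (limma adjusted p = 0.0117, 0.00109 and 8.85e-05). Lcn2, at 2.02, lost its call (limma adjusted p = 0.0555). That array was picked after its Ngp and Camp signals were seen, and leaving it out does not remove marrow transcripts from the other arrays. The part of marrow transcripts in the results was not tested. Of 4 marrow progenitor markers tested, 0 were called by limma in either step, also at an unadjusted p under 0.05. The summed signal of that list was nevertheless highest in its group on the same 2 arrays. It was 386.5 in no swelling replicate 1, with 199.9 and 176.9 in the other no swelling replicates. In moderate replicate 2 it was 477.4, with 138.9 and 271.8 in the other moderate replicates.

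The counts for other cell types are to be read against 23% of all genes called higher and 15.6% called lower in mild over no swelling joints. Of 9 macrophage markers tested, 1, Ccr2, was called higher in no swelling than in naive joints, where 1.52% of all genes were. All 9 were called higher in mild over no swelling joints, with Msr1 at 1.94 ± 0.24, Trem2 at 2.60 ± 0.34 and Ccr2 at 2.39 ± 0.32 (limma adjusted p = 4.25e-05, 6.43e-05 and 7.67e-05). Of 10 fibroblast markers tested, 8 were higher in mild than in no swelling joints, and of adipocyte and muscle markers 5 of 6 and 6 of 9 were lower. With scaling on hybridization controls 1 adipocyte marker and 0 muscle markers were lower and 1 muscle marker was higher, and with quantile normalization 0 muscle markers were called. The summed muscle signal lay between 43337 and 50801 in mild joints, against 69912 and 76479 in no swelling joints, so muscle transcripts were measured in both groups. Of 6 endothelial markers 3 were higher in mild than in no swelling joints, and of 5 keratinocyte and 4 erythroid markers 0 were called by limma in that step (1 and 0 at an unadjusted p under 0.05). Of 6 hepatocyte markers tested, 1 was called higher and 1 lower in mild than in no swelling joints. Cyp3a11 rose by 0.57 ± 0.20 (limma adjusted p = 0.0359). Cyp2e1, a cytochrome P450 gene, averaged 283 ± 163 in mild joints, against 745 ± 274 in no swelling joints (SD, n = 3 each), and fell by 1.42 ± 0.42 (limma adjusted p = 0.0132). With scaling on hybridization controls 1 was higher and 0 were lower in this list. With quantile normalization, and also with array medians aligned, 0 were higher and 1 was lower. The albumin gene Alb had 44.4, 32.9 and 21.2 in naive, 38.8, 48.7 and 30 in no swelling, and 31.2, 19 and 17.1 in severe joints. Apoa1, Ttr and Ahsg, of the same list, did not pass the low-signal filter. The part of hepatocyte transcripts in the results was not tested.

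Genes most like the members were found by the root mean square difference of centred log2 signals over the 15 arrays. For the mean of S100a8 and S100a9 they were Mpeg1 (0.658), Cxcl5 (0.736), Timp1 (0.761), Slfn4 (0.861) and Slpi (0.883). Mpeg1 averaged 24.4 in naive, 165.8 in no swelling, 1149 in mild, 1585 in moderate and 1682 in severe joints. For Serpina3n they were Tlr13 (0.286), Ccr1 (0.32), Ms4a6b (0.321), Cd53 (0.326) and Fcgr2b (0.344). Fcgr2b averaged 197.1 in naive, 351.8 in no swelling, 955.9 in mild, 1068 in moderate and 1154 in severe joints.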

How the data were processed

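Total RNA of knee synovium was biotin-labelled for Affymetrix arrays, per the labels' protocols. The deposited intensity signals of 45101 probe sets on 15 arrays were computed by the authors with MAS5, per the submitters' processing notes. No MAS5 version is given in the labels. The trimmed mean (2% at each end) was 150 on every array, so no further scaling was applied. The platform annotation from GEO can be old; it lists 35890 probe sets, 34958 with 1 symbol and 932 with several, and 9211 were unnamed here. Names were compared with a RefSeq gene table, and 0 symbols changed.

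Each gene was represented by its probe set with the highest mean signal. Genes above the 40th percentile of the array on at least 3 arrays were tested, 14315 of 18194. Group means of log2(signal + 16) were fitted over all 15 arrays with limma 3.58.1 in R 4.3.3, with empirical Bayes moderation along the intensity trend (10 residual and 5.52 prior degrees of freedom). Tests were two-sided, with Benjamini-Hochberg adjustment over all genes tested in a comparison. The steps were tested on simulated data.

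The members, gene lists and tests were chosen with earlier results of these data known. Named genes were all members with their probe sets, up to 3 genes per list with the lowest p in mild against no swelling, and the 5 genes most like calprotectin and Serpina3n. Alternatives were pseudocounts of 1 and 64, no filter or one at the 60th percentile, quantile normalization, aligned array medians, scaling on 9 hybridization controls, the mean of probe sets, separate tests of every probe set, only the groups compared, no intensity trend, a block for the replicate number, and leaving out each array. Same-numbered arrays of different groups deviated from their group means with correlations of -0.506 to 0.334 (30 pairs), so the numbers were not treated as pairs. No arrays held identical values.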

Additional observations from a re-analysis of the deposited data

Results flagged for a closer look

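For Ptx3, the gene of long pentraxin 3, the step from no swelling to mild swelling and the next step from mild to moderate swelling differed by 2.81 on the log2(signal + 16) scale, by a test of the difference itself (limma adjusted p = 0.0242). The first step was 1.81 ± 0.32 and the next -1.0 ± 0.32 (SE). With the mean of the 2 opposed probe sets the first step was 0.48 (limma adjusted p = 0.0646). The next step was -1.52 without moderate replicate 1 and -0.56 without moderate replicate 3. Moderate joints had 2459.7, 1066.4 and 636.4, against 2550.2, 2605.5 and 2063.6 in mild joints. The mild arrays enter both steps. Groups of 3 arrays are too small for the check of outlying samples.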

How the results depend on the processing

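Of 345 values under other settings 309, and of 435 values with 1 array left out 403, kept their direction and their side of the threshold, or moved within the spread. The count of genes whose step to mild differed from the next was 1; it was 0 with array medians aligned, with the mean of probe sets and with only the groups compared, 8 with scaling on hybridization controls, and 0 to 4 with 1 array left out (4 without no swelling replicate 1 or mild replicate 2, 0 without mild replicate 1 or 3). That scaling moved the median of all genes to 0.71 in mild over no swelling and 0.85 in the difference of steps. The count for moderate against mild was 0, and 1 with the mean of probe sets or without moderate replicate 1 (0 to 1 over the arrays). That for severe against mild was 3, and 1 with only the groups compared (1 to 3 over the arrays; 1 without mild replicate 2, severe replicate 1 or severe replicate 3). The cause was not tested. Orm1 in severe against naive joints turned to -0.10 with quantile normalization, -0.11 with array medians aligned, and lay between -0.15 and 0.26 with 1 array left out. Ptx3 in that contrast was 1.35, and -0.034 with the mean of its 2 opposed probe sets. The size of the largest differences depends on the pseudocount: S100a8 in severe against naive joints was 7.56 with 1 and 5.53 with 64.

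With the replicate number as a block, Saa1 in mild over no swelling (0.66, limma adjusted p = 0.0582) and Saa3 in severe over mild (0.95, limma adjusted p = 0.0623) lost their calls, leaving 7 and 2 genes called. The block changed no other call on the 10 genes. The numbers do not pair the samples.

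Dim signals limit the fold changes over naive joints, and 3 arrays per group limit the precision of every value.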
